A study of Mus musculus with 12 samples.

Results

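Nuclear receptors are transcription factors that are switched by small lipophilic ligands, and 7 of them, together with a retinoid carrier, were described in CD8+ T cells by RNA-seq. The 8 genes were Rora, Rara, Rxra, Rxrb, Pparg, Ppard, Nr3c1 and Crabp2. They were chosen by their gene symbols, from a list drawn up with the counts of naïve, media and sodium lactate libraries already known, so their differences between these groups are given as a description and support nothing beyond these libraries. All 8 were found among the 13780 genes of the table, 7 by an equal symbol and Ppard by its gene identifier, since its row carries a second symbol beside it.

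Retinoic acid, a derivative of vitamin A, enters the nucleus with the help of cellular retinoic acid-binding protein 2 (encoded by Crabp2) and binds the retinoic acid receptors, of which RARα (Rara) is one. These receptors bind DNA as pairs with a retinoid X receptor (Rxra, Rxrb), which is also the partner of the peroxisome proliferator-activated receptors PPARγ (Pparg) and PPARδ (Ppard), sensors of fatty acids. RORα (Rora) binds DNA alone and shares its sites in clock genes with the REV-ERB repressors, and the glucocorticoid receptor (Nr3c1) waits in the cytosol on HSP90 chaperones until a glucocorticoid binds it. In T cells, retinoic acid is known for homing to the gut and glucocorticoids for apoptosis and for restraint of activation.

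CD8+ T cells were taken from spleens of C57BL/6J mice of 8 to 12 weeks by positive selection on magnetic beads. The 4 naïve libraries came from cells frozen at once, without activation or treatment. The 4 media and the 4 sodium lactate libraries came from cells that were stimulated through CD3 and CD28 on beads, with IL-2 at 10 U/ml, over 72 h. Media alone served for the former, and sodium lactate was added to 40 mM for the latter. No library of activated cells was matched for sodium or osmolarity, so an effect of the lactate anion and of the added salt cannot be told apart. The labels name the activated libraries WT1, WT2 or WT3 and number all libraries, in a low run (1 to 9) and a high run (16 to 26) whose meaning is not given in the sources used here. Taking a WT name within 1 run as 1 donor, an assumption that the labels do not settle, gives 5 donors, of which 3 had both a media and a sodium lactate library. The labels do not say that libraries of a group came from separate animals, but the paper states that the mouse donors within each condition were independent. The p-values thus measure the spread between samples of separate animals, which may still be partly technical. Each library was 1 sample of bulk RNA, in which fewer cells of a type and less RNA per cell cannot be told apart.

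Total counts ran from 14726904 to 21478137 per library. Levels are given as CPM (counts scaled to the library's size, with trimmed mean of M-values factors) when 1 gene is compared across libraries, and per length as TPM (the same for transcripts, after division by gene length) when genes are compared with each other. A gene was called different when edgeR's quasi-likelihood test over 13767 genes gave it an adjusted p up to 0.01. The markers of CD8+ T cells (7 of 7 genes) were present in every library, with a summed level of 2414 to 4741 CPM in naïve, 3540 to 4346 CPM in media and 2708 to 3313 CPM in sodium lactate libraries, the activated groups not overlapping. The naïve libraries also held transcripts of other cells. Red cell markers (5 of 5 genes) summed to 1926, 6785, 752 and 171 CPM in naïve replicates 1 to 4 and to at most 6.00 CPM in activated libraries, and dendritic cell markers (6 of 6 genes) to 76.2 to 156 CPM and at most 4.30 CPM. Their B cell markers (8 of 8 genes) summed to 621 to 1496 CPM and their myeloid markers (8 of 8 genes) to 875 to 2577 CPM, against 6.51 to 21.2 CPM and 72.5 to 106.5 CPM over the activated libraries. What remained of the myeloid sum in activated libraries was carried by Cst3 and Cd68, whereas Lyz2, Csf1r and Adgre1 had at most 0.109 CPM there. Between the activated groups, CD4 T cell markers (4 of 4 genes) summed to 48.0 to 60.7 CPM in media and 83.7 to 96.6 CPM with sodium lactate, but nearly all of this was Zbtb7b, while Cd4 itself had 0.251 to 0.990 CPM in the activated libraries. NK cell markers (5 of 5 genes) summed to 209 to 301 CPM in media and 144 to 231 CPM with sodium lactate. Most of that was Klrk1, which activated CD8+ T cells also express, whereas Eomes was higher with sodium lactate (9.28 to 30.7 against 3.40 to 6.58 CPM) and the defining marker Ncr1 had at most 0.0512 CPM. The part of other cells in the differences below was not tested.

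Of the start sites of these genes in the RefSeq promoter table (GRCm38.p6), 13 sites of 6 genes were read, none being given here for Crabp2 and Nr3c1. The letters AGGTCA, the core that nuclear receptors of the retinoid, PPAR and ROR families recognise, were searched on both strands in the 250 bases before each start, with AGAACA, the core of the glucocorticoid receptor's site. AGGTCA stood before 3 of the 13 starts, and AGAACA before none. Over all 32851 promoters of the table, 14.0% held AGGTCA and 16.1% held AGAACA. All matches are shown in capitals with up to 12 bases on either side, and they lay before starts of Rxra and Pparg alone. Those of Rxra lie 81 and 42 bases before its second listed start, at chr2:27709193-27709222 and chr2:27709232-27709261 (the first on the opposite strand, and so read as TGACCT), and those of Pparg lie 22 bases before its first start, at chr6:115361104-115361133, and 3 bases before its second, at chr6:115362328-115362348. A match of letters is a description of the window and does not show that a receptor binds there.
Rxra, 81 bases before the second start: tagaaatgggtgTGACCTgagtaatggtca
Rxra, 42 bases before the second start: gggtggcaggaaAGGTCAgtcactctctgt
Pparg, 22 bases before the first start: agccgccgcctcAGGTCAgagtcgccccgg
Pparg, 3 bases before the second start: agggacgcgaggAGGTCAaga
Rora has a single start in the table, and its 250 bases before that start (chr9:68653536-68653785, forward strand) held neither motif. They are 61.2% G and C, against a median of 52.4% over all promoters.
Rora, 250 bases before the start: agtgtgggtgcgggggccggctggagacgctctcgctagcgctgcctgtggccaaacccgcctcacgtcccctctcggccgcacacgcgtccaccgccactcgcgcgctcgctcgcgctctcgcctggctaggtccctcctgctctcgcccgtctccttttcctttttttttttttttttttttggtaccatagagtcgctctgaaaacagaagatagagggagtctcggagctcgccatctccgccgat

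**Figure D1:**
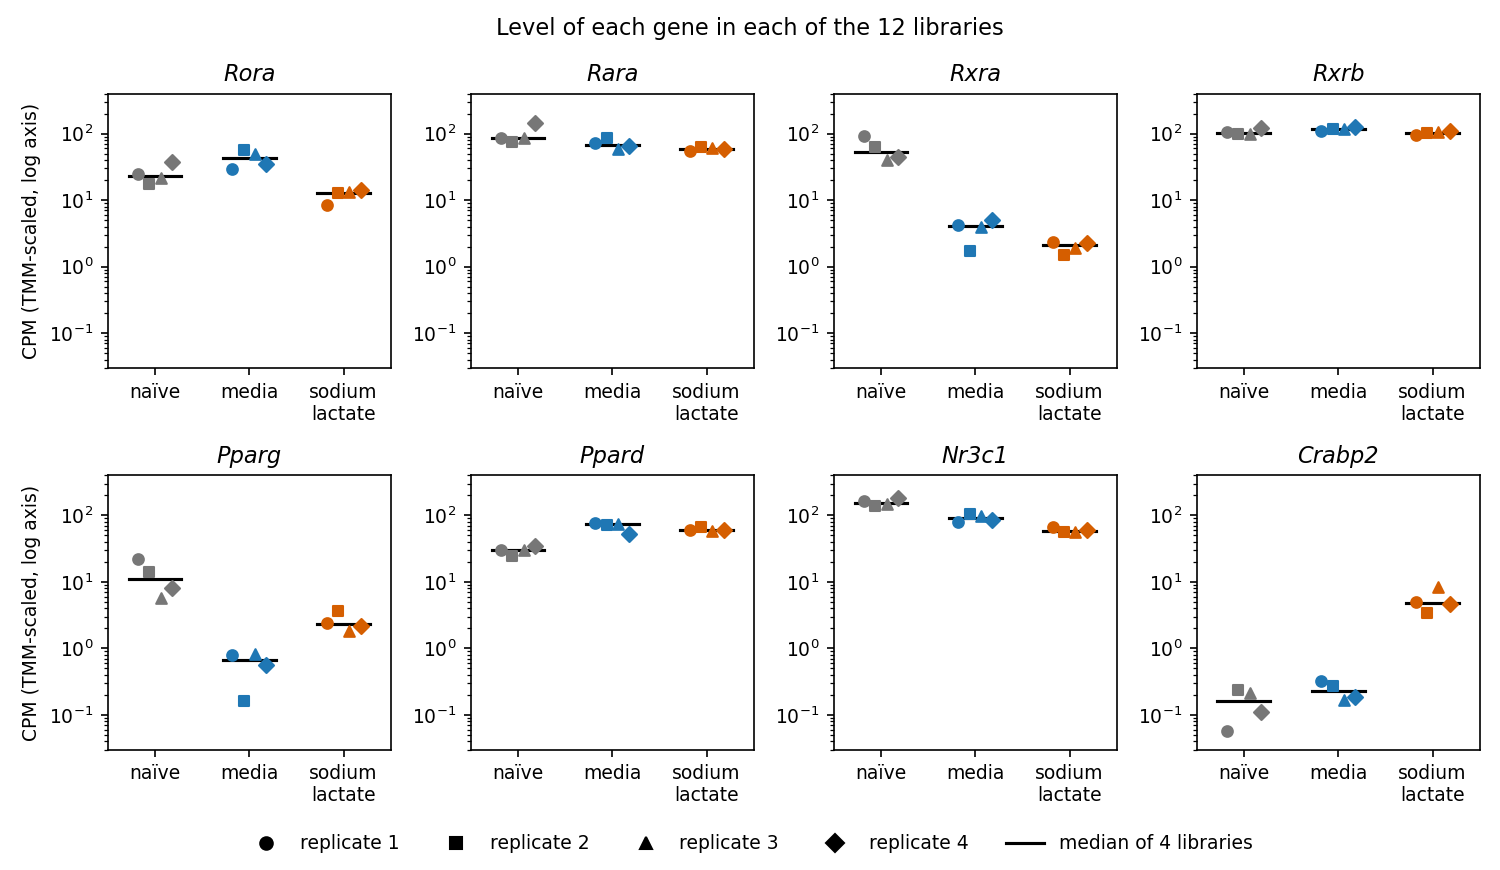
CPM of each of the 8 genes (log axis) in the 4 naïve, 4 media and 4 sodium lactate libraries, with 1 marker shape for each replicate number and a bar at the median of each group. Rxra and Pparg stood far higher in naïve than in activated libraries, Crabp2 stood at 3.41 CPM or more in sodium lactate libraries alone, and Rxrb stayed between 94.6 and 124 CPM in all 12.

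Per length, the most abundant of the 8 in naïve cells was Rxrb with 91.8 ± 13.0 TPM (mean ± SD, n = 4 here and below), followed by Rara with 76.8 ± 27.8 TPM and Nr3c1 with 70.3 ± 10.6 TPM, and these 3 overlapped between libraries. Rxra had 32.2 ± 12.5 TPM, Pparg 14.4 ± 8.50 TPM and Ppard 13.5 ± 2.31 TPM, and the range of Pparg overlapped those of Rxra, Ppard and Rora. Rora, with 6.58 ± 2.49 TPM, stood below Ppard in every naïve library, and Crabp2 had 0.399 ± 0.212 TPM. After activation in media, Rxrb again led with 101 ± 2.44 TPM, and Rara (55.3 ± 10.1 TPM), Nr3c1 (41.5 ± 5.94 TPM), Ppard (31.9 ± 6.14 TPM) and Rora (11.3 ± 3.35 TPM) followed. Of these, Rara overlapped Nr3c1 and Nr3c1 overlapped Ppard. Rxra had then 2.04 ± 0.733 TPM, and Pparg (0.691 ± 0.369 TPM) and Crabp2 (0.627 ± 0.205 TPM) overlapped at the bottom of the order, where the highest Pparg library also reached the lowest Rxra library. With sodium lactate the order was Rxrb (81.3 ± 1.91 TPM), Rara (42.7 ± 3.04 TPM), Ppard (25.9 ± 2.63 TPM), Nr3c1 (24.7 ± 2.703 TPM) and Crabp2 (12.7 ± 4.73 TPM), in which Ppard and Nr3c1 overlapped. Below them stood Rora (2.91 ± 0.543 TPM), Pparg (2.697 ± 0.907 TPM) and Rxra (1.01 ± 0.201 TPM), of which Rora and Pparg overlapped. Crabp2, at the bottom in media, thus stood above Rora, Pparg and Rxra in all 4 sodium lactate libraries.

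The first comparison asked what sodium lactate changed during activation. Crabp2 and Pparg were higher and Rora and Nr3c1 lower with sodium lactate than in media, whereas Rara, Rxra, Rxrb and Ppard were not called. These 4 of 8 stand beside 25.1% of all genes tested, with 13.9% higher and 11.1% lower. Crabp2 is counted among them although it could enter the test only through its sodium lactate libraries. The groups did not overlap for 5 of the 8, against 44.7% of all genes. The median log2 fold change of the 8 genes was -0.21, that of all genes -0.0016.

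Crabp2 (ENSMUSG00000004885, chromosome 3, 87948666 to 87953376 in GRCm38) had 7, 5, 3 and 3 counts in the 4 media libraries and 98, 65, 119 and 95 counts with sodium lactate. In CPM this was 0.324, 0.273, 0.167 and 0.188 against 5.02, 3.41, 8.42 and 4.58. The groups were far apart, and media replicate 1 and sodium lactate replicate 2 came nearest to each other. Summed over libraries and scaled, the ratio was 21.05, with an exact 95% interval of 13.1 to 35.9 that covers counting error only. The fitted log2 fold change was 4.43 (standard error, SE, 0.40, edgeR adjusted p = 5.5e-05), and only 0.189% of the genes tested had a larger one in size. Crabp2 passed the filter on low values through its sodium lactate libraries alone, so that it could not have been tested without being higher there. Its adjusted p and its rank are therefore a description only.

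Pparg (ENSMUSG00000000440, chromosome 6, 115360951 to 115490399) had 0.786, 0.164, 0.836 and 0.564 CPM in media and 2.41, 3.62, 1.84 and 2.17 CPM with sodium lactate. These levels rested on 3 to 17 counts per media library and 26 to 69 counts per sodium lactate library. The groups did not overlap, and media replicate 2 stood lowest. The log2 fold change was 2.08 (SE 0.51, edgeR adjusted p = 0.00647). The call was lost with limma voom (0.0291) and whenever any 1 of the 8 activated libraries was left out (adjusted p from 0.0107 to 0.0190, log2 fold change from 1.77 to 2.28).

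Rora (ENSMUSG00000032238, chromosome 9, 68653786 to 69388246) had 29.8, 56.1, 49.1 and 35.3 CPM in media and 8.35, 12.8, 13.0 and 14.3 CPM with sodium lactate. Every sodium lactate library was below every media library, with a fitted level 3.51-fold lower. Its log2 fold change was -1.81 (SE 0.27, edgeR adjusted p = 0.000317) and lay between -1.95 and -1.65 over 25 alternative settings. Of its exons, 0.627% overlap a gene on the opposite strand.

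Nr3c1 (ENSMUSG00000024431, chromosome 18, 39410545 to 39519421) had 80.5, 106.4, 96.4 and 83.8 CPM in media. With sodium lactate it had 66.3, 57.0, 56.7 and 59.9 CPM, below each media library. Its log2 fold change was -0.61 (SE 0.11, edgeR adjusted p = 0.00119), a smaller difference than that of Rora, and the call was kept in each of the 25 settings.

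The retinoid X receptors were at very unequal levels. Rxra (ENSMUSG00000015846, chromosome 2, 27676440 to 27762957) had 4.21, 1.75, 3.902 and 5.02 CPM in media and 2.36, 1.52, 1.91 and 2.26 CPM with sodium lactate, and media replicate 2 lay within the range of the sodium lactate libraries. Its log2 fold change was -0.88 (SE 0.34, edgeR adjusted p = 0.0588), and so was not called. Blocked by these assumed donors, it was -1.09 (edgeR adjusted p = 0.00521) and was called. That fit compares only the 3 donors with both libraries, so media replicate 2, which has no partner, adds nothing to it. Rxrb (ENSMUSG00000039656, chromosome 17, 34031812 to 34038399) had 108.9 to 123.8 CPM in media and 94.6 to 108.8 CPM with sodium lactate, just without overlap. It differed by -0.18 on the log2 scale (SE 0.09, edgeR adjusted p = 0.142). Among the 70 ways to split these libraries, the exact two-sided permutation p was 0.0286, the smallest that this design allows. Any gene whose groups do not overlap gets this value, so it only restates the lack of overlap.

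Rara (ENSMUSG00000037992, chromosome 11, 98927818 to 98974942) had 57.8 to 85.4 CPM in media and 54.6 to 63.7 CPM with sodium lactate, with a log2 fold change of -0.23 (SE 0.19, edgeR adjusted p = 0.349). Ppard (ENSMUSG00000002250, chromosome 17, 28232700 to 28301474) had 52.2 to 77.5 CPM in media and 57.4 to 67.9 CPM with sodium lactate, with a log2 fold change of -0.16 (SE 0.13, adjusted p = 0.356). For both genes the groups overlapped. The TPM of Ppard over that of Pparg was 34.6 to 174 in media (median 37.5) and 7.38 to 12.3 with sodium lactate (median 10.4).

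**Figure D2:**
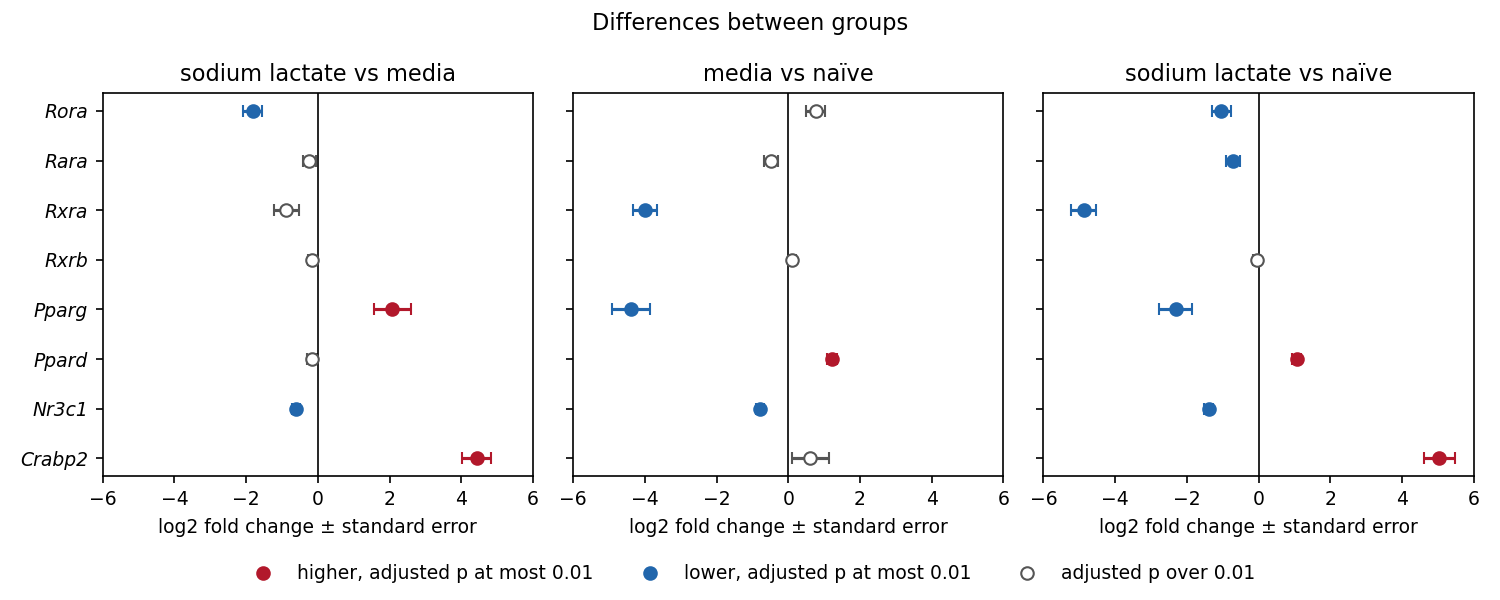
Log2 fold change of each gene with its standard error, for sodium lactate against media, media against naïve and sodium lactate against naïve (4 libraries in each group). Filled points passed an adjusted p of 0.01, red for higher and blue for lower. With sodium lactate against media, Crabp2 (4.43) and Pparg (2.08) lie to the right and Rora (-1.81) and Nr3c1 (-0.61) to the left.

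In the 3 pairs of libraries that share a WT name and a run, Rora differed with sodium lactate by -1.82, -1.93 and -1.30 on the log2 scale. Crabp2 was higher by 3.56, 3.66 and 3.97 and Pparg by 1.49, 1.98 and 1.76. Rxra, Rxrb and Nr3c1 were lower in 3 of 3 pairs, and Rara and Ppard went both ways. The high run of library numbers holds 1 naïve, 1 media and 2 sodium lactate libraries. The log2 difference with sodium lactate was -2.06 in the low and -1.36 in the high run for Rora, 3.57 and 4.41 for Crabp2, 2.32 and 1.64 for Pparg, and -0.61 and -0.52 for Nr3c1, in the same direction in both runs. For Rxra it was -0.67 and -1.23, and for Rxrb -0.21 in both. For Rara it was -0.26 and -0.12, and for Ppard, in opposite directions, -0.22 and 0.18.

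Activation in media was compared with naïve cells next. Rxra, Pparg and Nr3c1 were lower and Ppard was higher after activation, 4 of 8 genes where 57.5% of all genes were called (28.5% higher, 29% lower). The groups did not overlap for 4 of the 8, against 61.2% of all genes. The median log2 fold change was -0.18 for the 8 genes and -0.029 for all genes.

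Rxra had 91.5, 62.6, 40.7 and 44.0 CPM in the naïve libraries. Its log2 fold change on activation in media was -4.00 (SE 0.34, edgeR adjusted p = 5.29e-07), a 16.1-fold lower level. Pparg had 22.3, 14.1, 5.66 and 8.01 CPM in the naïve libraries, with a log2 fold change of -4.39 (SE 0.52, adjusted p = 9.69e-06). Naïve replicates 1 and 2 were the highest for both genes. The myeloid marker Csf1r, the receptor of a macrophage growth factor, had 918, 585, 282 and 205 CPM in the same naïve libraries and at most 0.109 CPM in any activated one. The summed myeloid markers were 2577, 2100, 1137 and 875 CPM in these libraries. The part of these cells in the levels of Rxra and Pparg was not tested. With naïve replicates 1 and 2 both left out, a choice made after the markers were seen, the log2 fold change was -3.58 for Rxra and -3.58 for Pparg, and both were still called. The naïve libraries that remained still had 282 and 205 CPM of Csf1r, so this omission cannot separate the part of these cells. Between the activated groups, the summed myeloid markers overlapped, with 72.5 to 95.5 CPM in media and 91.3 to 106.5 CPM with sodium lactate. Cst3 was higher with sodium lactate (84.1 to 96.5 against 57.2 to 73.5 CPM) and Cd68 lower (4.87 to 10.4 against 11.7 to 18.1 CPM). Lyz2, Csf1r and Adgre1 had at most 0.109 CPM in both groups. The part of these cells in differences between media and sodium lactate was not tested.

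**Figure D3:**
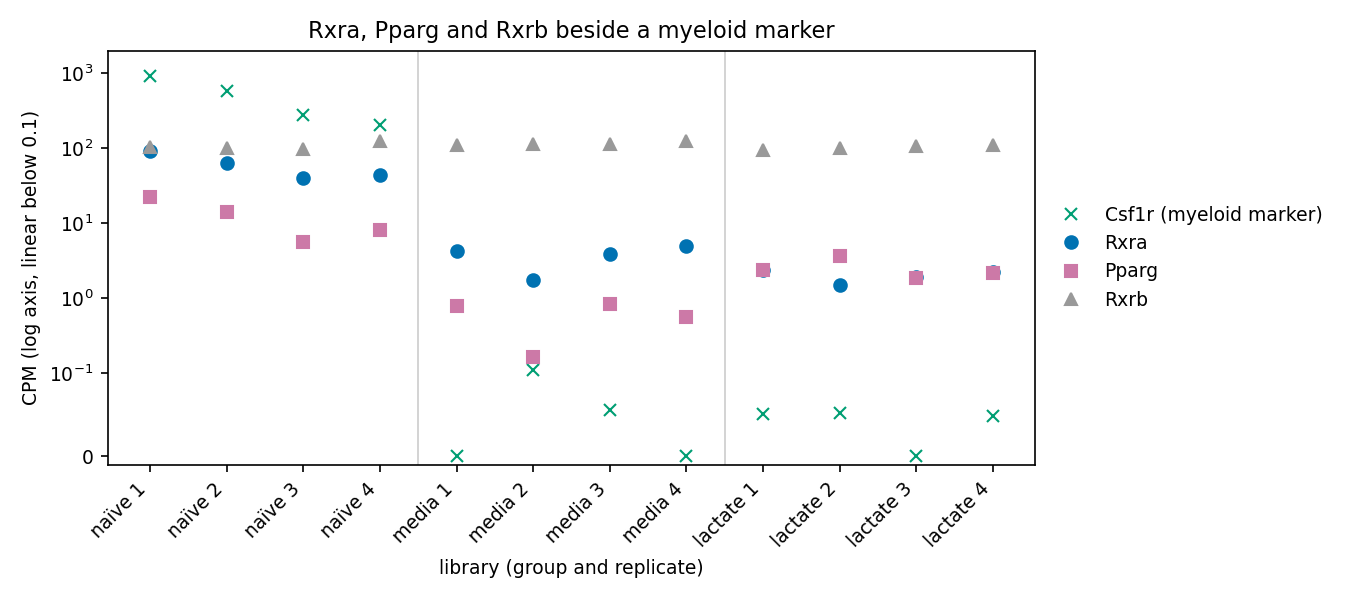
CPM of Csf1r (a myeloid marker), Rxra, Pparg and Rxrb in each of the 12 libraries, on an axis that is logarithmic above 0.1 and linear below. Rxra, Pparg and Csf1r each stand highest in naïve replicate 1 (91.5, 22.3 and 918 CPM) and lie lower in all activated libraries, whereas Rxrb lies between 94.6 and 124 CPM throughout.

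Ppard had 29.6, 24.5, 29.6 and 34.3 CPM in naïve cells and 77.5, 72.4, 73.5 and 52.2 CPM in media. It was the only one of the 8 called higher on activation in media, with a log2 fold change of 1.22 (SE 0.14, edgeR adjusted p = 5.64e-06). Nr3c1 had 162, 140, 148 and 181 CPM in naïve cells, above every media library, and a log2 fold change of -0.78 (SE 0.11, adjusted p = 4.91e-05). Neither gene lost its call under any of 24 alternative settings. In the low and the high run, the log2 difference was -4.28 and -3.105 for Rxra, -4.32 and -3.59 for Pparg, 1.42 and 0.60 for Ppard, and -0.67 and -1.11 for Nr3c1.

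Rora had 17.3 to 36.9 CPM in naïve cells, and its log2 fold change of 0.77 (SE 0.26) missed the threshold (edgeR adjusted p = 0.0188). It passed with edgeR's likelihood ratio test (0.00843), without naïve replicate 4 (1.01, adjusted p = 0.00230) and without media replicate 1 (0.91, adjusted p = 0.00994). Within runs, the difference was 1.06 for the low and -0.06 for the high run, where each group had 1 library, and so was seen in the low run alone. Rara had 74.3 to 144 CPM in naïve cells and a log2 fold change of -0.49 (SE 0.19, adjusted p = 0.0347), and naïve replicate 4 held its highest level. It passed without naïve replicate 2 (-0.68, adjusted p = 0.00587), the library with the most red cell transcripts, or without naïve replicates 1 and 2 (-0.79, adjusted p = 0.00483). Rxrb (0.12, adjusted p = 0.261) and Crabp2 (0.61, adjusted p = 0.31) were not called, and Crabp2 had only 1 to 4 counts in each naïve library.

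The TPM ratios within the retinoid X receptors and within the PPAR genes, which are not ratios of DNA-binding partners, moved accordingly. Rxrb over Rxra was 1.82 to 4.44 in naïve cells (median 3.19), 39.2 to 105 in media (median 43.9) and 63.7 to 105 with sodium lactate (median 82.1). Ppard over Pparg was 0.523 to 2.06 in naïve cells, with a median of 1.18, and thus stood on both sides of equal levels. The ranges of naïve and activated libraries did not overlap for either ratio.

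Sodium lactate was last compared with naïve cells, in a comparison that shares its libraries with those above. Called genes were 7 of 8, where 65% of all genes were called (33% higher, 32% lower), and the same number did not overlap, against 67.8% of all genes. Crabp2, which entered the test only through its sodium lactate libraries, is among the called genes. Ppard (log2 fold change 1.06) and Crabp2 (5.04) were higher, and Rora (-1.04), Rara (-0.72), Rxra (-4.88), Pparg (-2.31) and Nr3c1 (-1.40) were lower. The median was -0.88 for the 8 genes and 0.012 for all genes. Rxrb differed by -0.06 (SE 0.09, edgeR adjusted p = 0.583).

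Crabp2 had 0.0564, 0.240, 0.216 and 0.112 CPM in naïve libraries, and the ratio of the sodium lactate to the naïve level was 33.0 (exact 95% counting interval 18.2 to 66.7). Rora stood at 1.70 times its naïve level in media and at 0.485 times its naïve level with sodium lactate. Its sodium lactate libraries (8.35 to 14.3 CPM) were all below its naïve libraries, with an adjusted p of 0.00313 from edgeR that became 0.0113 without lactate replicate 1. The adjusted p of Rara was 0.00377, and became 0.0129 without lactate replicate 1, and its log2 fold change was -0.48 without naïve replicate 4. For Pparg the sodium lactate level stood between the media and the naïve level, and its difference from naïve cells was -1.50 without naïve replicates 1 and 2. For Nr3c1 the log2 fold changes on activation were -0.78 in media and -1.40 with sodium lactate, and its 3 groups did not overlap.

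The genes around these receptors were followed in 8 lists. The lists were written from general knowledge, but with earlier results of these data known, so the shares called in them are a description only. They held other nuclear receptors, retinoid metabolism, retinoic acid-responsive genes, clock genes, targets and chaperones of the glucocorticoid receptor, PPAR targets, and coactivators and corepressors. Of their 126 tested genes, each counted once where lists share it, 22 were higher and 19 lower with sodium lactate than in media, or 32.5% where all genes gave 25.1%. The 41 called genes became 23 without media replicate 2, 26 without lactate replicate 1 and 63 without naïve replicate 4. The split turned toward lower genes with DESeq2 (26 higher, 32 lower), the likelihood ratio test (25 and 29), total counts scaling (21 and 23), the 2 groups alone (28 and 29) and the donor block (24 and 29). Against naïve cells, 83 of them were called in media (30 higher, 53 lower, or 65.9%, where all genes gave 57.5%) and 95 with sodium lactate (32 higher, 63 lower, or 75.4%, where all genes gave 65%).

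**Figure D4:**
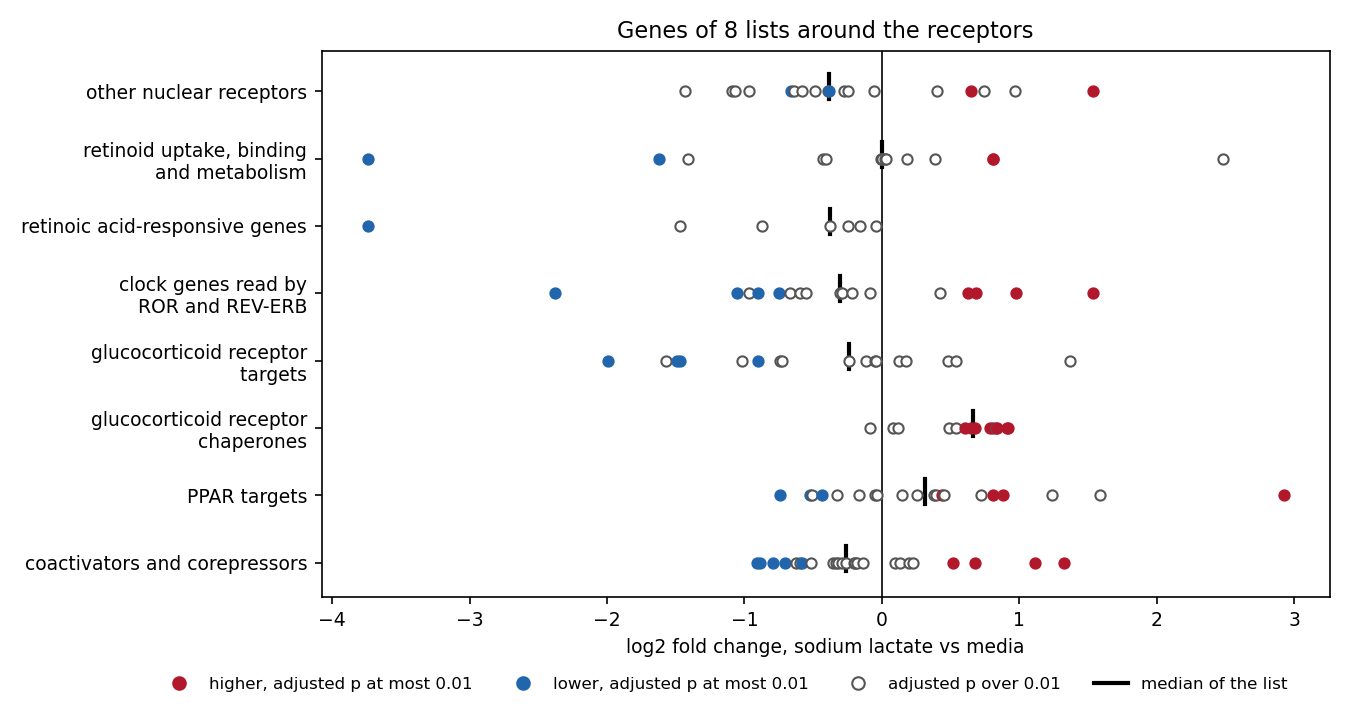
Log2 fold change with sodium lactate against media of every tested gene in the 8 lists, 1 point a gene, filled where the adjusted p was at most 0.01, with a bar at the median of each list. The 8 filled points of the glucocorticoid receptor's chaperones lie to the right (median 0.66), and the targets of that receptor have filled points to the left alone.

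Of 41 other nuclear receptors, 18 were tested, of which 2 were higher and 2 lower (22.2% called, near the 25.1% of all genes, median log2 fold change -0.39). Esrra (log2 fold change 0.65), a regulator of mitochondrial genes, rose, and Thra (-0.66), a thyroid hormone receptor, and Nr1h2 (-0.38), a sensor of oxysterols, fell. Thra missed the threshold without any of media replicates 2 and 3 or lactate replicates 1, 3 and 4 and with the block by title number, Esrra without media replicate 2 (0.0104), and Nr1h2 with the donor block (0.0131). Of the exons of Thra, 5.70% overlap Nr1d1 on the opposite strand. Nr1d1 itself, named here after its values were seen, was higher with sodium lactate by 1.54 on the log2 scale (edgeR adjusted p = 0.000385). Its level was low, at 1.01 CPM in media and 2.94 CPM with sodium lactate.

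Among the genes of retinoid uptake, binding and metabolism, 15 of 30 were tested, of which 2 were higher and 2 lower (26.7%, near the 25.1% of all genes, median 0). Fabp5, a fatty acid-binding protein that carries retinoic acid to PPARδ, rose from 34.9 ± 6.72 to 61.3 ± 8.24 CPM (log2 fold change 0.81, edgeR adjusted p = 0.00555). That call was lost without any of media replicates 2, 3 and 4 or lactate replicates 1, 3 and 4 (adjusted p up to 0.0214), and reads that also map to retroposed copies of Fabp5 were not counted. The dehydrogenase genes of the list went both ways. Rdh13 rose from 10.6 ± 1.45 to 18.6 ± 0.759 CPM (0.81, adjusted p = 0.000363) and Rdh12 fell from 19.3 ± 3.11 to 6.26 ± 1.36 CPM (-1.62, adjusted p = 0.000125).

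Of 12 genes that retinoic acid is known to act on, 7 were tested and only Dhrs3, a retinaldehyde reductase, was called (14.3%, against 25.1% of all genes). It was lower, at 0.631 CPM in media and 0.0380 CPM with sodium lactate, and is named after its values were seen. The list also holds integrin genes of gut homing. Itgb7 had 513 ± 98.5 CPM in media and 280 ± 66.8 CPM with sodium lactate, without overlap, and a log2 fold change of -0.87 (edgeR adjusted p = 0.0263) that missed the threshold. It passed in 5 settings: the likelihood ratio test (0.00876), DESeq2 (0.00454), the 2 groups alone (0.00220), the donor block (0.00287) and the omission of naïve replicate 4 (0.00160). Itga4 had 110 ± 42.4 and 98.5 ± 12.7 CPM (-0.16, adjusted p = 0.599). The median of the list was -0.38.

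The clock list held 18 symbols, of which Arntl and Bmal1 name 1 gene. All 17 of its genes were tested, and 4 were higher and 4 lower (47.1%, against 25.1% of all genes, median -0.30). Nfil3, a repressor, rose from 64.7 ± 10.5 to 127 ± 12.9 CPM (log2 fold change 0.98, edgeR adjusted p = 0.00088). Per1 fell from 152 ± 25.3 to 81.3 ± 8.57 CPM (-0.90, adjusted p = 0.000921), and Dbp from 25.7 ± 2.97 to 12.3 ± 4.13 CPM (-1.06, adjusted p = 0.00633). Tef, of the same family as Dbp, fell from 30.2 ± 6.00 to 18.0 ± 1.29 CPM (-0.75, adjusted p = 0.00324), a call that was lost without lactate replicate 1 or 3 (adjusted p up to 0.0114), and 2.45% of its exons overlap a gene on the opposite strand. The call of Dbp was lost without any 1 of the activated libraries other than lactate replicate 2 (adjusted p up to 0.0222). Of the exons of Dbp, 18.0% overlap Sphk2 on the opposite strand.

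Of 17 tested targets of the glucocorticoid receptor, 4 were lower and none was higher (23.5% called, median -0.24), a share near the 25.1% of all genes. Bcl2l11, which encodes the pro-apoptotic protein BIM, fell from 165 ± 40.6 to 41.3 ± 7.60 CPM (log2 fold change -2.00, edgeR adjusted p = 0.00134). The chemokine receptor gene Cxcr4 fell from 86.7 ± 11.7 to 30.8 ± 12.1 CPM (-1.49, adjusted p = 0.00146), and Per1 was given above. Tsc22d3, which encodes the anti-inflammatory protein GILZ, fell from 113 ± 22.7 to 41.0 ± 15.3 CPM (-1.47, adjusted p = 0.00496), a call that was lost without any of media replicates 2, 3 and 4 or lactate replicates 1 and 2 and with the block by title number (adjusted p up to 0.0175). Other genes of the list were not called, such as Fkbp5 (0.54, adjusted p = 0.015), which was chosen here after its values were seen.

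Of the 14 chaperones and cochaperones of the receptor, 8 were higher and none was lower (57.1% called, against 25.1% of all genes, median 0.66). Hspa4, a relative of HSP70, rose from 305 ± 31.0 to 577 ± 48.5 CPM (log2 fold change 0.92, edgeR adjusted p = 8.23e-05), and Stip1, which links HSP70 to HSP90, from 219 ± 31.1 to 412 ± 36.0 CPM (0.91, adjusted p = 0.000146). Ptges3, the cochaperone p23, rose from 59.2 ± 12.5 to 106 ± 14.9 CPM (0.84, adjusted p = 0.000977), and Fkbp4, an immunophilin of the receptor complex, from 181 ± 33.5 to 317 ± 32.6 CPM (0.81, adjusted p = 0.000657). All 4 kept their call in each of 25 settings. Among the 6 genes of the list that were not called were those of HSP90 itself, named here after their values were seen. Hsp90aa1 had a log2 fold change of 0.83 (edgeR adjusted p = 0.0387) and Hsp90ab1 one of 0.12 (0.604). Hspa8 was not called either (0.08, edgeR adjusted p = 0.817).

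The PPAR targets went both ways, with 4 of 20 tested genes higher and 3 lower (35%, against 25.1% of all genes, median 0.32). Plin2, a coat protein of lipid droplets, rose from 21.3 ± 2.33 to 39.4 ± 5.37 CPM (log2 fold change 0.88, edgeR adjusted p = 0.00178), and Fabp5 was given above. Catalase (Cat) fell from 95.4 ± 6.06 to 57.1 ± 5.02 CPM (-0.74, adjusted p = 0.00425), and Ech1, of fatty acid oxidation, from 152 ± 10.1 to 106 ± 11.3 CPM (-0.52, adjusted p = 0.00364). Ech1 lost its call without media replicate 2 or lactate replicate 1 and Cat without any of media replicates 2 and 4 or lactate replicates 1, 2 and 4 (adjusted p up to 0.0139).

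Of 25 tested coactivators and corepressors, 4 were higher and 5 lower (36%, against 25.1% of all genes, median -0.26). Pprc1, of the PGC-1 family, rose from 52.2 ± 17.4 to 131 ± 34.9 CPM (log2 fold change 1.32, edgeR adjusted p = 0.000786), and Prmt1, an arginine methyltransferase, from 104 ± 21.6 to 225 ± 19.7 CPM (1.12, adjusted p = 0.000156). Trim24, a cofactor of retinoic acid receptors, fell from 94.4 ± 5.49 to 50.4 ± 3.84 CPM (-0.91, adjusted p = 5.38e-05). Ncoa7 fell from 32.4 ± 4.77 to 17.5 ± 2.46 CPM (-0.89, adjusted p = 0.00955), at the edge of the threshold, and its call was lost in 13 of 25 settings, among them the omission of any 1 activated library or of naïve replicate 1 or 3 (adjusted p up to 0.0343).

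The genes most like each of the 8 were sought over all 12 libraries by Pearson's r of log2 CPM among 10313 abundant genes, as a description in which all points share their libraries and the difference between naïve and activated cells. Rora was most like Kdm3a, a histone demethylase (r = 0.982, and 0.992 over the 8 activated libraries), and then Birc2 (0.963). Kdm3a had 201 ± 37.4 CPM in naïve cells, 288 ± 46.9 CPM in media and 129 ± 15.2 CPM with sodium lactate, the order that Rora showed. Crabp2 was most like Pelo (0.982) and Ercc1 (0.980), of which Pelo had 6.80 ± 0.601, 8.05 ± 0.437 and 16.4 ± 0.767 CPM. Pparg was most like Asb2 (0.971), which had 73.2 ± 46.1, 1.10 ± 0.562 and 5.03 ± 1.18 CPM, and Alg1 (0.971). Nr3c1 was most like Taok1 (0.994), which had 186 ± 20.9, 93.8 ± 18.4 and 59.0 ± 7.99 CPM, and Tnrc6b (0.994).

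Rxra was most like Lmo4 (r = 0.994) and Lima1 (0.993), Ppard like Bmpr1a (0.987) and Eno2 (0.983), Rara like Csnk1g2 (0.954) and Mat2b (0.951), and Rxrb like Igf1r (0.915) and Mtmr3 (0.908). Over the 8 activated libraries alone, r was lowest for Ppard and Eno2 (0.765), Rara and Csnk1g2 (0.810) and Rara and Mat2b (0.818), and lay between 0.863 and 0.992 for the others.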

How the data were processed

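RNA-seq libraries of 12 samples (naïve, media and sodium lactate, 4 each) were analysed. The deposited table holds counts per gene that the authors made by mapping reads to GRCm38 with STAR 2.7.5b, removing PCR duplicates and counting uniquely mapped reads in Ensembl exons with featureCounts. Whether counting used strand is not given in the sources used here, so reads of overlapping genes on opposite strands may not be told apart. Total counts were 14726904 to 21478137 per library.

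The 13767 of 13780 genes that reached 1 CPM in 3 libraries were fitted over all 3 groups with edgeR 4.0.16 (R 4.3.3) by the quasi-likelihood test after TMM scaling, with Benjamini-Hochberg adjustment over all genes and a threshold of 0.01. Log2 CPM used a prior count of 2. The procedure was tested on simulated data. Alternatives were other scalings and filters, DESeq2 1.42.0, limma 3.58.1 (voom), blocks, a run term and the omission of each library. Two-sided exact permutation tests used the 70 arrangements of 4 against 4 libraries. Intervals cover counting error only.

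The genes and lists were chosen with earlier results of these data known, and 1 gene of the lists is not reported here and not counted in them. From the lists, genes with at least 5 CPM were named by the size of their change with sodium lactate against media, up to 4 called genes per list, or, where fewer than 2 were called, the 2 most abundant. For each of the 8 genes, the 2 genes with the highest Pearson correlation of log2 CPM were named, among genes with a mean of at least 5 CPM. Title numbers were shared by groups, but the WT names of the labels, read as donors within each run of library numbers, pair only 3 media with 3 sodium lactate libraries. The deviations from group means correlated by 0.374, 0.211 and 0.553 in these pairs. Coordinates are from GENCODE M21, and promoters from RefSeq (GRCm38.p6).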

Additional observations from a re-analysis of the deposited data

Results flagged for a closer look

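In 102 groups of 4 libraries, 8 held a highest or lowest library that stood apart from the other 3 by Dixon's criterion at the 95% level, where chance gives about 1 in 20. None was among the 8 genes of the report, and all were among the genes named from the lists. Sodium lactate replicate 1 stood apart for Cxcr4 (12.71 CPM, others 35.74 to 38.3 CPM), Fkbp4 (365.5 CPM, others 296.6 to 308 CPM), Ech1 (88.86 CPM, others 109.5 to 113.2 CPM) and Pprc1 (182.8 CPM, others 108.1 to 116.1 CPM). Sodium lactate replicate 2 did so for Rdh13 (17.45 CPM, others 18.93 to 19.01 CPM). Naïve replicate 4 stood apart for Bcl2l11 (309 CPM, others 92.16 to 96.39 CPM) and Hspa4 (255 CPM, others 211.1 to 218.3 CPM). Media replicate 2 stood apart for Bcl2l11 (225.6 CPM, others 139.9 to 147.2 CPM).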

How the results depend on the processing

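Each gene result was recomputed under 22 to 25 alternative settings, and 30 of 50 kept their direction and their side of the threshold in all that were run for them. With at least 10 counts required in every library, 2 of the 8 genes were called between sodium lactate and media, since Crabp2 and Pparg were then not tested. The list genes called in that comparison (41) ranged from 23 to 63 when 1 library was left out. They were 23 without media replicate 2, 26 without sodium lactate replicate 1 and 63 without naïve replicate 4, and 62 with a threshold of 0.05. The sign turned for results that had not been called. Itga4 had 0.14 with the donor block and -0.30 to 0.13 when 1 library was left out, positive only without media replicate 2. The donor block gives no weight to that library either, since its assumed donor has no sodium lactate library. With sodium lactate against naïve cells, Rxrb had -0.18 to 0.01265 over 24 alternative settings (positive without naïve replicate 4). In media against naïve cells, Rxrb had -0.005938 with naïve replicates 1 and 2 left out, a setting chosen after seeing the data. The cause was not tested. The replicate block by title number left 41 list genes and 4 of the 8 genes called between sodium lactate and media. Same-numbered libraries correlated by 0.374, 0.297, 0.0038 and 0.553. With the donor block, 5 of the 8 genes were called. Pparg and Crabp2 rest on few counts in media, which limits their precision.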
